A study of Drosophila melanogaster with 30 samples.

Results

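The comparison described here sets rRNA-depleted (rRNA−) libraries against polyA-selected (polyA+) libraries of heat-stressed fruit flies. Its members were chosen by label as all libraries of flies taken to 37°C, which gives 3 rRNA− and 3 polyA+ libraries, 6 of the 30 libraries of the series. Canton S, a standard wild-type strain of Drosophila melanogaster, was used, and each pool held 6 whole adult females whose age was not given. All had been reared at 25°C with alternating light and dark, and the water bath around their sealed vials was warmed by 0.25°C/min to 37°C and held there for 5 min before the flies were frozen. For each of 3 replicate numbers there was 1 rRNA− library, from 0.3 µg of total RNA, and 1 polyA+ library, from 0.8 µg. Libraries with the same number were taken as a pair from 1 pool, which no source states outright and which the values did not show, since same-numbered libraries did not deviate together. The other 24 libraries came from flies at 4°C, 10°C, 25°C and 34°C, and those at 25°C serve as the unheated controls. The rRNA− libraries were read at 85 bp on a HiSeq instrument and the polyA+ libraries at 150 bp on a NovaSeq instrument before trimming to 85 bp, so that RNA amount, sequencer, original read length and kit cannot be told apart from the protocol. A pool of whole flies mixes all tissues, so more cells of a type cannot be told apart from more RNA per cell.

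PolyA selection keeps RNA that carries a poly(A) tail, using oligo(dT) to hold it while other RNA is washed away. Depletion instead removes ribosomal RNA with probes and leaves the rest, so that tailless RNA, nascent RNA and RNA fragments without a tail can all enter the library. In flies at high temperature the heat shock factor Hsf switches on the chaperone genes within minutes, splicing and nuclear export of other messages slow down, and the nuclear lncRNA Hsrω gathers RNA-binding proteins into speckles.

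The counts were whole-number read counts per gene, from the table in which the study had removed rRNA reads and brought the libraries to like depth. Nuclear rRNA still took 0.63%, 0.17% and 1.2% of the counts of rRNA− libraries and at most 5.0e-05% of those of polyA+ libraries. The rRNA− libraries summed to 4361202, 4113507 and 4277372 counts in replicates 1, 2 and 3, against 4709550, 4008813 and 4109418 in polyA+ libraries. In the values that follow, the libraries of a protocol are always given in the order of replicates 1, 2 and 3, and values in CPM, the usual per-library scaling of counts, are corrected by the trimmed mean of M values (TMM) unless the library total is named. The number of genes with a count was 11736 to 11761 per rRNA− library and 10640 to 10888 per polyA+ library. The rRNA− libraries were alike (Spearman correlation 0.971 to 0.976 across genes, which are not replicates), whereas the polyA+ libraries were less so, at 0.952 for replicates 1 and 2, 0.844 for 1 and 3 and 0.888 for 2 and 3. The biological coefficient of variation was 0.183 in rRNA− and 0.491 in polyA+ libraries. In polyA+ libraries the spread followed tissue genes, as the summed CPM of library totals show. The 9 chorion genes of the eggshell summed to 14588, 17682 and 12436 CPM in rRNA− libraries, against 10.4, 2395 and 19831 CPM in polyA+ libraries. The 26 sarcomere genes of muscle summed to 18970, 23016 and 21697 CPM in rRNA− libraries, against 35238, 31694 and 8044 CPM in polyA+ libraries. PolyA+ replicate 1 was thus nearly free of chorion RNA and replicate 3 was low in muscle RNA, whereas the rRNA− libraries of the same pool numbers were not, and the part of this in the results below was not tested beyond the values given without each replicate. The yolk protein genes that mark adult females were abundant in all 6 libraries, and the summed male markers lay at 1.6 to 10.7 CPM in rRNA− and 0.7 to 1.1 CPM in polyA+ libraries.

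Of 9329 genes tested, 2568 were higher in rRNA− than in polyA+ libraries, 27.5% of those tested, and 1746 were lower, 18.7%, so that 46.2% were called in either direction. The calls came from edgeR (quasi-likelihood, with the pool as a block) and needed both an adjusted p under 0.05, after Benjamini and Hochberg, and a fold of at least 2. The median gene lay at a log2 fold change of 0.02, rRNA− over polyA+, as the scaling sets it, and scaling by library totals alone or by the total of nuclear mRNA shifted it to 0.58 or 0.57. With these scalings the share of called genes that were higher grew to 82.3% and 82.5%, against 59.5% with TMM. The libraries of the protocols did not overlap for 6333 genes, 67.9% of those tested. Across genes the Spearman correlation of an rRNA− with a polyA+ library ran from 0.484 to 0.656 over the 9 pairs. R² of the log10 mean normalized counts was 0.547 over 10270 genes, against 0.679 at 25°C and 0.705 to 0.727 at the other temperatures. Pool by pool it was 0.409, 0.528 and 0.577 at 37°C and 0.627, 0.706 and 0.634 at 25°C. At 10°C it was 0.519, 0.492 and 0.774, and at 34°C 0.574, 0.630 and 0.736, so single pools elsewhere lay within the range at 37°C. The low R² of the means at 37°C led to the choice of the temperature and is a description. Lower calls numbered 1129 without replicate 1, 493 without replicate 2 and 2433 without replicate 3. Of the 4314 called genes 3194, 2173 and 4106 were called again in these fits. All called genes that could still be tested kept their sign (4302, 4310 and 4313 genes), but the fits share libraries with the main fit, so this is no separate support.

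**Figure D1:**
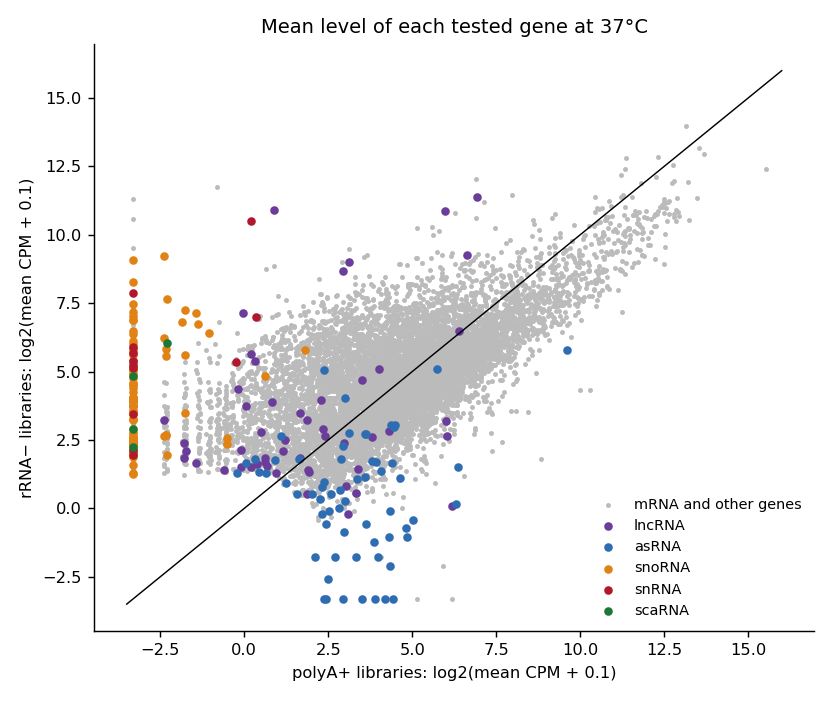
Each point is a gene, with the mean of the 3 rRNA− libraries on the y axis and of the 3 polyA+ libraries on the x axis, both as log2 of CPM with 0.1 added, coloured by gene class. The small RNA classes stand above the cloud at the left, high in rRNA− libraries and near 0 in polyA+ libraries, and the asRNA genes lie mostly under the diagonal.

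All tested small nuclear RNAs of the spliceosome, nucleolar RNAs and Cajal body RNAs were higher in rRNA− libraries. The calls covered 82 of 82 snoRNA, 12 of 12 snRNA and 4 of 4 scaRNA genes, beside 27.5% higher among all genes. These RNAs guide the modification of ribosomal and spliceosomal RNA or build the spliceosome, and most have no poly(A) tail. Their reads made up 0.546% ± 0.179 (snoRNA) and 0.260% ± 0.0486 (snRNA) of rRNA− counts outside nuclear rRNA, against 0.000714% ± 0.000324 and 0.000266% ± 0.000223 of polyA+ counts (SD, n = 3 each). A member that passed the filter on low counts did so through its rRNA− libraries and had to differ, so these counts describe the class and support nothing. Of the 98 genes, 62 snoRNA, 9 snRNA and 3 scaRNA genes had 0 counts in all polyA+ libraries, and with such genes at the bound that 3 counts in each polyA+ library allow, the median log2 fold was at least 4.54 for snoRNA, 5.72 for snRNA and 4.08 for scaRNA genes. snRNA:7SKa, at 3R:7474553-7474996 of the dm6 assembly, encodes the RNA that holds the elongation factor P-TEFb inactive. It had 1392, 1280 and 1710 CPM in rRNA− libraries, against 1.75, 0.607 and 0.805 CPM in polyA+ libraries. The libraries were far apart, with a log2 fold change of 10.44 ± 0.54 (SE) and an edgeR Benjamini-Hochberg adjusted p of 9.7e-04. The U5 gene snRNA:U5:63BC had 1940, 496 and 1197 counts in rRNA− libraries and 0 in every polyA+ library, at least 269-fold higher. snoRNA:Psi28S-291, which lies within the gene of the ribosomal protein RpL3, had 9235 counts over the rRNA− libraries against 1 over the polyA+ libraries, a ratio of 6213 with a 95% counting interval of 1115 to 245430 (Clopper-Pearson, counting error only).

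The RNA subunits of the processing enzymes went the same way. RNaseMRP:RNA, which cleaves precursor rRNA, had 4225, 3136 and 2973 CPM in rRNA− libraries, against 0, 0.607 and 0.805 CPM in polyA+ libraries. RNaseP:RNA, which trims precursor tRNA, had 415, 328 and 550 CPM in rRNA− libraries and 1.46, 2.12 and 0.805 CPM in polyA+ libraries (log2 fold change 8.17). No library of a protocol came near those of the other, and since these genes, too, passed the filter through their rRNA− libraries, their calls support nothing. The 7SL RNA of the signal recognition particle, with 2 copies, had no equalized count in any library, whereas in the full counts it had 561544, 251991 and 345417 counts in rRNA− libraries, against 60, 44 and 900 in polyA+ libraries. The replication-dependent histone genes, whose messages end in a stem-loop without a tail, were likewise nearly absent from the equalized counts and none of the 111 was tested. In the full counts they summed to 7144, 8574 and 9539 counts in rRNA− libraries, against 344, 450 and 4652 in polyA+ libraries. Per total of counts outside nuclear rRNA the mean CPM was 23.2-fold higher in rRNA− libraries, and 76.8-fold without replicate 3, whose polyA+ library was the highest of its protocol. Per library total with nuclear rRNA it was 11.5-fold higher.

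**Figure D2:**
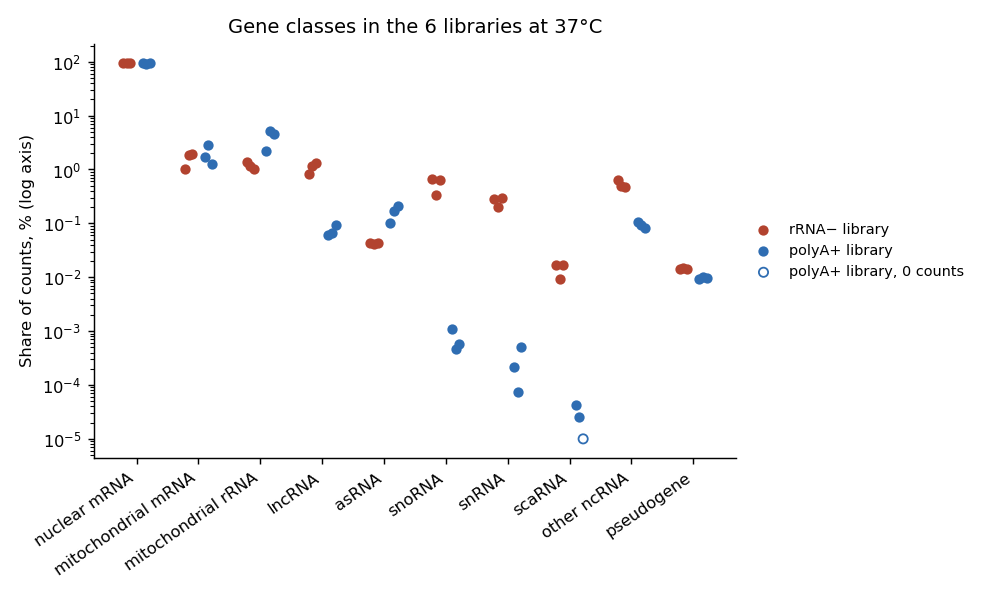
The share of a library's counts outside nuclear rRNA held by each gene class is drawn in percent on a log axis, with 1 point per library. The rRNA− points lie far above the polyA+ points for snoRNA, snRNA, scaRNA and lncRNA, below them for asRNA, and among them for nuclear mRNA, and the open marker stands for polyA+ libraries without a scaRNA count.

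Among lncRNA genes, 27 of 55 tested were higher in rRNA− libraries and 5 were lower, with a median log2 fold change of 1.72, beside 27.5% and 18.7% of all genes and a median of 0.02. The count of higher lncRNA genes was 18 without replicate 2. Of 704 lncRNA genes with a count at 37°C only these 55 passed the filter on low counts, and in 4 of them all libraries of 1 protocol had 0 counts. Members with few counts in 1 protocol passed through the other and had to differ, so the counts of called genes describe the class and support nothing. The class held 1.09% ± 0.236 of rRNA− counts, against 0.0729% ± 0.0162 of polyA+ counts (SD, n = 3 each). lncRNA:CR34335, on the X chromosome within DIP-alpha on the same strand, had 788, 2370 and 2630 CPM in rRNA− libraries, against 1.16, 0.910 and 3.22 CPM in polyA+ libraries. All rRNA− libraries were far above all polyA+ libraries, and the log2 fold change was 10.05 in the equalized and 6.13 in the full counts. lncRNA:mimi had 114, 156 and 152 CPM in rRNA− libraries and 1.16, 0.910 and 0.537 CPM in polyA+ libraries (log2 fold change 7.29). lncRNA:noe, named for its expression in the nervous system, had 509, 539 and 509 CPM in rRNA− libraries and 8.74, 7.28 and 9.66 CPM in polyA+ libraries (log2 fold change 5.92).

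Both heat shock lncRNAs were higher in rRNA− libraries. Hsrω (lncRNA:Hsromega, 3R:21296127-21317836) had 1647, 2074 and 1860 CPM in rRNA− libraries, against 55.6, 67.7 and 67.1 CPM in polyA+ libraries. Each protocol was tight, and the log2 fold change was 4.87 ± 0.32 (SE, edgeR adjusted p 9.7e-04). The αγ-element (lncRNA:alphagamma-element:CR32865, 3R:12475336-12478267), a repeated heat shock transcript near the Hsp70 copies, had 224, 555 and 441 CPM in rRNA− libraries, against 9.03, 9.10 and 4.56 CPM in polyA+ libraries. Here the table mattered, since the log2 fold change was 5.70 in the equalized and 1.26 in the full counts, where the rRNA− libraries held 1515, 3367 and 2661 counts and the deeper polyA+ libraries 2710, 2586 and 3826. Of the lncRNAs that fell, lncRNA:CR45184 had 3, 8 and 4 counts in rRNA− libraries and 96, 266 and 410 counts in polyA+ libraries (log2 fold change −6.12). It overlaps Sf3b3 and 5 snoRNA genes on its own strand, so its reads cannot be assigned with certainty.

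The antisense genes ran against the lncRNA, snoRNA, snRNA and scaRNA classes. Of 63 asRNA genes tested, 42 were lower in rRNA− libraries and 1 was higher, beside 18.7% lower and 27.5% higher among all genes. The median log2 fold change was −2.61, and 26 were lower without replicate 2. In 7 of the 63 genes all rRNA− libraries had 0 counts. Members with 0 or few rRNA− counts passed the filter on low counts through their polyA+ libraries and had to differ, so the count of lower genes describes the class and supports nothing. asRNA:CR45874, opposite the ribosomal protein gene RpS9, had 1.13, 0.588 and 1.36 CPM in rRNA− libraries, against 75.4, 57.7 and 101 CPM in polyA+ libraries (log2 fold change −6.23 ± 0.38, edgeR adjusted p 9.7e-04). asRNA:CR45926, opposite the histone chaperone gene Nap1, had 2.64, 2.35 and 3.31 CPM in rRNA− libraries and 60.9, 67.4 and 120 CPM in polyA+ libraries (log2 fold change −4.84). asRNA:CR44704 had 6 counts over the rRNA− libraries and 34.9, 24.6 and 26.3 CPM in polyA+ libraries (log2 fold change −6.13). All 63 genes overlapped a gene on the other strand, and whether the counting used strand is not stated. The count of an asRNA gene was a median of 2.10% of that of its partner in rRNA− libraries and 8.03% in polyA+ libraries, and the share was larger in polyA+ libraries for 50 genes. Of the 61 partners tested, 25 were lower and 5 higher, with a median log2 fold change of −0.97. Whether reads of the partners entered the asRNA counts was not tested.

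Mitochondrial RNA split within its own classes. The mt:lrRNA gene of the large ribosomal RNA had 7594, 4415 and 4383 CPM in rRNA− libraries, against 29890, 63803 and 49643 CPM in polyA+ libraries. The mt:srRNA gene of the small ribosomal RNA had 3697, 4915 and 3916 CPM in rRNA− libraries, against 69.3, 161 and 127 CPM in polyA+ libraries. Neither overlapped between protocols, and the log2 fold changes had opposite signs, −3.12 ± 0.42 for mt:lrRNA and 5.20 ± 0.35 for mt:srRNA (SE, edgeR adjusted p 0.0032 and 9.7e-04). Whether the depletion probes target either RNA is not stated. Of 11 mitochondrial mRNAs tested, 6 were lower and 1 was higher, beside 18.7% and 27.5% of all genes. Their median log2 fold change was −1.08, and 4 were lower without replicate 1 and 2 without replicate 2. mt:ND3, a subunit of respiratory complex I, had 11.1, 23.9 and 25.3 CPM in rRNA− libraries and 1106, 1548 and 436 CPM in polyA+ libraries (log2 fold change −5.60). mt:CoII, a subunit of cytochrome c oxidase, had 592, 854 and 918 CPM in rRNA− libraries and 3939, 6578 and 2534 CPM in polyA+ libraries (log2 fold change −2.39). For the complex I gene mt:ND1 the log2 fold change was −1.57, which was not called without replicate 2, at −1.28, or with either scaling by totals, at −0.99. mt:ND2, with 3.21, 4.70 and 2.33 CPM in rRNA− libraries, had 422, 929 and 6.17 CPM in polyA+ libraries. PolyA+ replicate 3 lay close to the rRNA− libraries, and the call (log2 fold change −5.88, edgeR adjusted p 0.038) was lost without replicate 1 at −4.90 and without replicate 2 at −4.41, as well as with either scaling by totals at −5.27. The short mt:ATPase8 had 11, 42 and 23 counts in rRNA− libraries and 0 in polyA+ libraries, at least 5.71-fold higher. It passed the filter on low counts through its rRNA− libraries. It also overlaps mt:ATPase6 on its own strand, so its reads cannot be assigned with certainty.

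Nuclear mRNAs divided by length. Of 2027 tested mRNAs longer than 4000 nt of exonic sequence, 1539 were higher in rRNA− libraries and 14 lower, and of 1279 under 1000 nt, 21 were higher and 516 lower, beside 27.5% and 18.7% of all genes. The median log2 fold change was −0.75 under 500 nt (155 genes), −1.12 from 500 to 1000 nt (1124 genes), −0.79 from 1000 to 2000 nt (2837 genes), 0.31 from 2000 to 4000 nt (2875 genes), 2.35 from 4000 to 8000 nt (1555 genes) and 3.88 above 8000 nt (472 genes). The 155 shortest mRNAs thus lay above the band next to them. With scaling by library totals alone the medians of these bands, in the same order, were −0.17, −0.54, −0.21, 0.89, 2.93 and 4.46. The size of the shortfall of short mRNAs thus depends on the scaling. Members with few counts in 1 protocol passed the filter on low counts through the other. Genes of over 4000 nt held 24.9% to 26.6% of the mRNA counts of rRNA− libraries and 5.62% to 7.63% of those of polyA+ libraries. The slope of the log2 ratio on log2 length was 1.35, 1.08 and 1.21 per doubling in the 3 pools, and 0.372 to 1.36 in the 12 pools at other temperatures. Higher mRNAs had a median of 4824 nt and 7 exons, lower mRNAs 1282 nt and 3 exons, and all tested mRNAs 2168 nt and 4 exons. Of higher mRNAs 3.15% had a single exon, against 11.9% of lower and 8.53% of all tested mRNAs. From 1000 to 2000 nt 889 genes were lower with all replicates, 566 without replicate 1, 229 without replicate 2 and 1103 without replicate 3, with medians of −0.72, −0.83 and −0.69 in the smaller fits. From 500 to 1000 nt, 468 were lower with all replicates, 299 without replicate 1, 163 without replicate 2 and 553 without replicate 3, with medians of −0.94, −1.17 and −1.09.

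**Figure D3:**
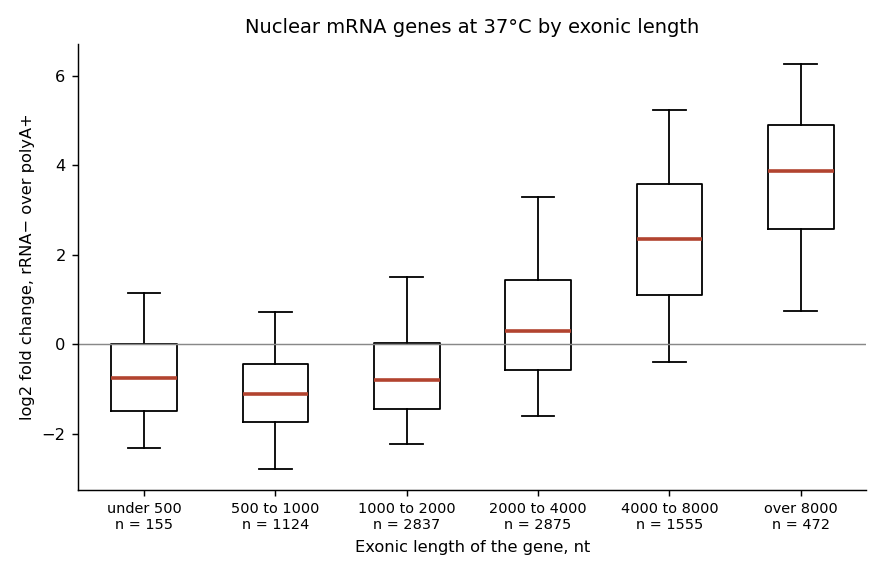
The log2 fold change of nuclear mRNAs, rRNA− over polyA+, is drawn by band of exonic length in nt, with the quartiles as boxes, the median as a red line and the 5th and 95th percentiles as whiskers. Medians lie under 0 up to 2000 nt and reach 3.88 above 8000 nt.

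Long genes led the list of smallest p. spen, at 2L:159032-203397, encodes a large nuclear repressor that binds RNA. It had 359, 325 and 330 CPM in rRNA− libraries, against 4.37, 5.16 and 4.29 CPM in polyA+ libraries, and the log2 fold change was 6.19 ± 0.35 (SE, edgeR adjusted p 9.7e-04). futsch, a microtubule-binding protein of axons, had 188, 185 and 182 CPM in rRNA− libraries and 4.66, 3.34 and 4.02 CPM in polyA+ libraries (log2 fold change 5.52). Replicates of a protocol differed little beside the gap between protocols for both genes. upSET, a chromatin factor, had 232, 198 and 219 CPM in rRNA− libraries and 1.16, 2.12 and 2.42 CPM in polyA+ libraries (log2 fold change 6.82). mei-P26, a germline regulator of translation, had 145, 146 and 143 CPM in rRNA− libraries and 3.20, 3.64 and 3.22 CPM in polyA+ libraries (log2 fold change 5.42). A few genes ran against their length. Among the 14 long mRNAs that were lower were the tropomyosin gene Tm1, the purine synthesis genes Gart and Pfas, the glycolytic Pfk and the ciliary transport gene rempA, and among the 21 short mRNAs that were higher were Sumo, the ubiquitin-like modifier, and BomS6, a secreted immune peptide.

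Neuronal genes were higher almost throughout, in 23 of 25 tested channel and synapse genes beside 27.5% of all genes, with a median log2 fold change of 4.66, near the 3.88 of mRNAs in the same length band. Ten-m, a teneurin that matches synaptic partners, had 188, 195 and 229 CPM in rRNA− libraries, against 6.70, 5.16 and 4.29 CPM in polyA+ libraries (log2 fold change 5.25). The sodium channel gene para had 1011 counts over the rRNA− libraries and 3 over the polyA+ libraries, a ratio of 227 with a 95% counting interval of 77.4 to 1101. Members with few polyA+ counts, such as para, passed the filter on low counts through their rRNA− libraries and had to differ. The count of higher genes therefore describes the list and supports nothing. The 2 members not called were Rop, which serves vesicle fusion, and the potassium channel Shal. The summed CPM of library totals was 1330, 1329 and 1455 in rRNA− libraries, against 123, 146 and 93.7 in polyA+ libraries, so that no library of a protocol came near those of the other.

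Immediate early and stress genes, which respond to signalling within minutes, were higher in 7 of 8 cases, beside 27.5% of all genes. Their median log2 fold change was 3.96, against 2.35 for mRNAs in their length band. kay, the fly Fos, had 214, 232 and 225 CPM in rRNA− libraries and 12.2, 9.10 and 8.32 CPM in polyA+ libraries (log2 fold change 4.51). Atf3, a bZIP transcription factor, had 41.4, 51.3 and 53.1 CPM in rRNA− libraries and 1.75, 0.607 and 0.537 CPM in polyA+ libraries (log2 fold change 5.67). puc, the phosphatase that shuts off JNK signalling, had 40.4, 42.1 and 42.6 CPM in rRNA− libraries and 4.08, 2.43 and 2.42 CPM in polyA+ libraries (log2 fold change 3.83). For all 3 the protocols lay apart in every library. Members with few polyA+ counts, such as Atf3, passed the filter on low counts through their rRNA− libraries and had to differ. The count of higher genes therefore describes the list and supports nothing. Jra, the fly Jun and the partner of Fos, was the member that was not called, with 36.5, 41.9 and 45.5 CPM in rRNA− libraries and 63.5, 36.7 and 41.1 CPM in polyA+ libraries, which overlapped.

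Of 8 circadian clock genes, 5 were higher and 1 was lower, beside 27.5% and 18.7% of all genes, and their median log2 fold change of 2.31 lay near the 2.35 of mRNAs in their length band. The transcription factor gene cwo had 81.2, 67.6 and 75.6 CPM in rRNA− libraries and 3.20, 3.04 and 5.10 CPM in polyA+ libraries (log2 fold change 4.32). Pdp1, an activator of Clk, had 90.5, 94.0 and 107 CPM in rRNA− libraries and 5.53, 5.46 and 2.68 CPM in polyA+ libraries (log2 fold change 4.44). Both were well separated. The light receptor cry, a shorter gene, had 59.3, 48.0 and 58.3 CPM in rRNA− libraries and 276, 225 and 89.6 CPM in polyA+ libraries (log2 fold change −1.70), and it was not called without replicate 2, at −1.42, or with the nuclear mRNA scaling, at −1.12. Without replicate 1 and without replicate 2, 4 clock genes each were higher.

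Genes of compact, abundant housekeeping messages were lower in rRNA− libraries. Of 83 cytosolic ribosomal protein genes, 62 were lower, beside 18.7% of all genes, and 0 higher, with a median log2 fold change of −1.36, against −1.12 for mRNAs of 500 to 1000 nt. Their summed CPM of library totals was 132380, 136600 and 125560 in rRNA− libraries, against 232830, 203230 and 283290 in polyA+ libraries. The protocols did not overlap in this sum. RpL10Ab, of the large subunit, had 546, 532 and 596 CPM in rRNA− libraries and 5696, 3992 and 4794 CPM in polyA+ libraries (log2 fold change −3.10 ± 0.29, edgeR adjusted p 0.0012). RpS26, of the small subunit, had 894, 1049 and 1222 CPM in rRNA− libraries and 6669, 4818 and 6255 CPM in polyA+ libraries (log2 fold change −2.48). With the scalings by library totals and by nuclear mRNA the direction of both stayed the same. Of 72 mitochondrial ribosomal protein genes, 53 were lower and 0 higher (median −1.32), with 20 lower without replicate 2. The proteasome, which degrades marked proteins, had 21 of 31 genes lower and 0 higher (median −1.27), with 9 lower without replicate 2. Both lists stand beside 18.7% lower and 27.5% higher among all genes, and mRNAs in their length bands had medians of −1.12 and −0.79. With scaling by library totals alone the list medians were −0.78 for cytosolic ribosomal, −0.74 for mitochondrial ribosomal and −0.69 for proteasome genes, all under a fold of 2.

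Genes of energy metabolism lay further down than mRNAs of their length. Of 67 nuclear genes of oxidative phosphorylation, 59 were lower and 1 higher, beside 18.7% and 27.5% of all genes. Their median log2 fold change was −1.96, against −1.12 in their length band. ND-B15, of complex I, had 30.2, 32.7 and 30.3 CPM in rRNA− libraries and 651, 396 and 187 CPM in polyA+ libraries (log2 fold change −3.55). ATPsynO, of ATP synthase, had 247, 255 and 253 CPM in rRNA− libraries and 3340, 2298 and 1050 CPM in polyA+ libraries (log2 fold change −3.0). The rRNA− libraries were tight and the polyA+ libraries spread over a range in which replicate 1 was the highest and replicate 3 the lowest, as muscle RNA was. The sum over the list showed the same, with 18699, 22055 and 20395 CPM of library totals in rRNA− libraries and 74747, 54796 and 29455 CPM in polyA+ libraries. Without replicate 1 there were 45 lower genes, and 26 without replicate 2. Of 13 glycolytic genes 10 were lower and 1 higher, beside 18.7% and 27.5% of all genes. Their median log2 fold change was −1.86, against 0.31 for mRNAs in their length band. Gapdh2 had 506, 606 and 710 CPM in rRNA− libraries and 4173, 3648 and 3106 CPM in polyA+ libraries (log2 fold change −2.59). Pgk, the next enzyme of the pathway, had 240, 251 and 269 CPM in rRNA− libraries and 2232, 1607 and 990 CPM in polyA+ libraries (log2 fold change −2.59). Hex-A, the hexokinase that opens the pathway, went the other way, with 269, 288 and 267 CPM in rRNA− libraries and 86.2, 73.8 and 38.6 CPM in polyA+ libraries (log2 fold change 2.13).

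Detoxification and digestion genes were lower or not called, apart from 3 cytochrome P450 genes. Of 29 glutathione transferase genes, 17 were lower and 0 higher (median −1.74), beside 18.7% and 27.5% of all genes, with 7 lower without replicate 2. GstD1 had 383, 446 and 510 CPM in rRNA− libraries and 2605, 1992 and 1759 CPM in polyA+ libraries (log2 fold change −2.24). Of 67 cytochrome P450 genes 13 were lower, near the background share of 18.7%, and 3 higher, and the lower count depended on the libraries, with 5 without replicate 1, 1 without replicate 2 and 33 without replicate 3. Of 24 Jonah and trypsin proteases of the gut 10 were lower (median −1.62), beside 18.7% of all genes. The lower count was 6 without replicate 1, 2 without replicate 2 and 21 without replicate 3. Their sum was 10250, 7855 and 8822 CPM of library totals in rRNA− libraries and 22831, 18228 and 6759 CPM in polyA+ libraries, where replicate 3 was the lowest of all.

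**Figure D4:**
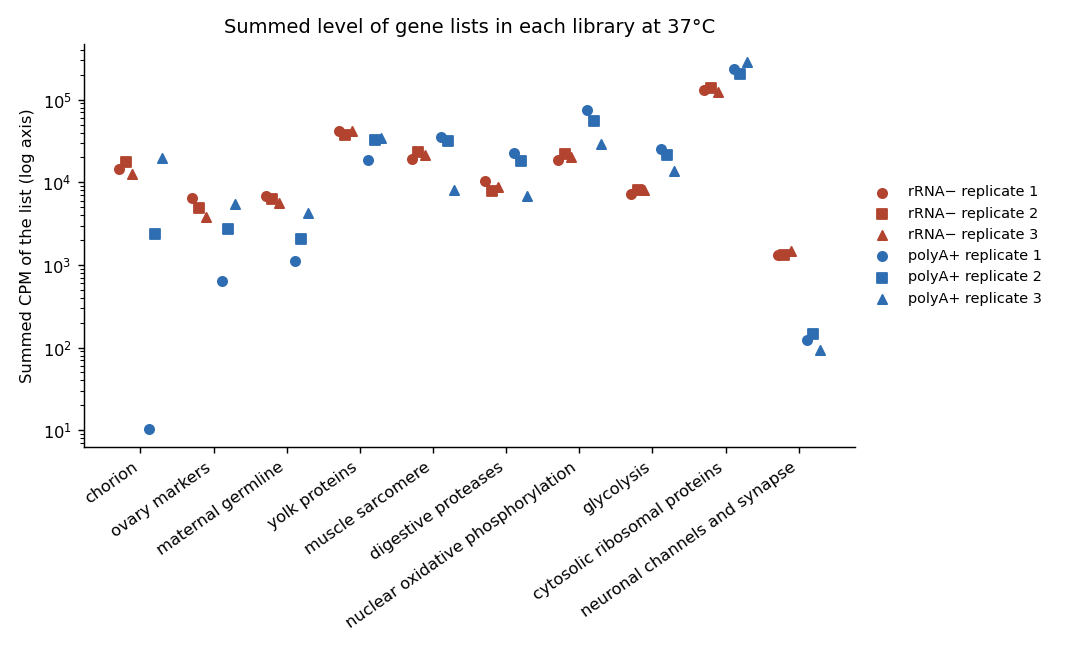
Summed CPM of library totals is drawn for 10 gene lists, with 1 marker per library and the marker shape giving the replicate. The rRNA− libraries cluster in every list, and the polyA+ libraries spread by orders of magnitude for the chorion genes and several-fold for muscle and oxidative phosphorylation genes.

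Muscle genes had no common direction. Of 26 sarcomere genes 5 were higher and 5 lower, with a median log2 fold change of 0.11, below the 27.5% and near the 18.7% of all genes. Without replicate 3 there were 4 higher and 10 lower. The giant proteins of the thick filament and the elastic filament were higher. bt, the projectin gene, had 1229, 1390 and 1150 CPM in rRNA− libraries and 74.3, 38.5 and 31.4 CPM in polyA+ libraries (log2 fold change 4.81). sls, the fly titin, had 1527, 1535 and 1653 CPM in rRNA− libraries and 101, 95.9 and 159 CPM in polyA+ libraries (log2 fold change 3.76). Both stood apart in every library. Tm1 had 620, 624 and 578 CPM in rRNA− libraries and 6133, 3880 and 1040 CPM in polyA+ libraries (log2 fold change −2.29). Act88F, the actin of flight muscle, had 323, 636 and 496 CPM in rRNA− libraries and 9965, 7106 and 205 CPM in polyA+ libraries. Its polyA+ libraries lay on both sides of the rRNA− libraries, the log2 fold change of −2.76 did not pass (edgeR adjusted p 0.21), and without replicate 3 it was called at −4.12.

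The heat shock genes had no common direction. Of 15 inducible heat shock genes tested, of 17 listed, 3 were higher and 4 lower, with a median log2 fold change of 0.40, beside 27.5% and 18.7% of all genes. Without replicate 2 there were 1 higher and 3 lower. The small heat shock genes Hsp22, Hsp23 and Hsp26 were lower, and their proteins hold unfolded proteins until they can be refolded. Hsp23 (3L:9381882-9382765) had 1499, 1517 and 1507 CPM in rRNA− libraries, against 15012, 8492 and 5242 CPM in polyA+ libraries. Hsp26 (3L:9376418-9377427) had 2136, 2885 and 2808 CPM in rRNA− libraries and 14990, 11950 and 7024 CPM in polyA+ libraries. Hsp22, which acts in mitochondria, had 1179, 1108 and 1127 CPM in rRNA− libraries and 3310, 3292 and 2646 CPM in polyA+ libraries. No library of a protocol overlapped the other for these genes, and the log2 fold changes were −2.53 ± 0.37 for Hsp23, −2.06 ± 0.35 for Hsp26 and −1.43 ± 0.27 for Hsp22 (SE, edgeR adjusted p 0.0039, 0.0064 and 0.0082). Hsp22 was not called without replicate 2, at −1.36, nor with the scalings by library totals, at −0.85, and by nuclear mRNA, at −0.86. Hsp27, a close relative in the same gene cluster, had 3701, 2299 and 1978 CPM in rRNA− libraries and 1594, 1790 and 771 CPM in polyA+ libraries. Its log2 fold change of 0.98 missed the fold of 2, had the other sign, and passed with either scaling by totals, at 1.56.

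Among the other chaperones and regulators given here, Hsp83 and Hsp68 differed least. Hsp83, the fly Hsp90, had 7310, 7184 and 7585 CPM in rRNA− libraries and 4717, 5371 and 5238 CPM in polyA+ libraries, which did not overlap, but the log2 fold change of 0.53 did not pass (edgeR adjusted p 0.11) except with the scalings by library totals, at 1.11, and by nuclear mRNA, at 1.10. Hsp68, a relative of Hsp70, had 5342, 6092 and 6584 CPM in rRNA− libraries and 8017, 7352 and 5533 CPM in polyA+ libraries, which overlapped, with a log2 fold change of −0.20 that became 0.38 and 0.37 with the scalings by library totals and by nuclear mRNA. stv, a co-chaperone, had 1488, 1455 and 1705 CPM in rRNA− libraries and 633, 719 and 380 CPM in polyA+ libraries (log2 fold change 1.47), and it was not called without replicate 2, at 1.70. Hsf, the factor that switches on the response, had 98.4, 93.0 and 84.8 CPM in rRNA− libraries and 28.5, 47.6 and 61.2 CPM in polyA+ libraries (log2 fold change 1.07), and the call was lost without replicate 1, at 0.72, and without replicate 2, at 1.12. Of 8 constitutive chaperones 4 were lower and 1 higher, beside 18.7% and 27.5% of all genes, with 1 lower without replicate 1 and likewise without replicate 2. Hsp60A, of the mitochondrion, had 784, 663 and 820 CPM in rRNA− libraries and 2994, 2443 and 2027 CPM in polyA+ libraries (log2 fold change −1.71). Hsc70-3, the Hsp70 of the endoplasmic reticulum, had 1572, 1198 and 1242 CPM in rRNA− libraries and 428, 500 and 245 CPM in polyA+ libraries (log2 fold change 1.83).

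The 6 near-identical Hsp70 copies, the major inducible chaperone of flies, gave values that depended on the table and are uncertain gene by gene. In the equalized counts Hsp70Ab had 179, 596 and 624 CPM in rRNA− libraries and 4.08, 0.303 and 0.805 CPM in polyA+ libraries (log2 fold change 8.06, not called without replicate 3 at 7.28). Hsp70Bc had 88.8, 99.1 and 86.3 CPM in rRNA− libraries and 356, 369 and 532 CPM in polyA+ libraries (log2 fold change −2.17). These copies had opposite signs, and in the full counts neither was called, at 0.47 for Hsp70Ab and −0.95 for Hsp70Bc. Summed over the copies, the equalized counts were 3649, 8211 and 8937 in rRNA− libraries, against 3280, 2944 and 2657 in polyA+ libraries. The full counts were 219972, 217830 and 243107 in rRNA− libraries, against 594024, 591161 and 669573 in polyA+ libraries, so the equalized table held 1.66% to 3.77% of the full Hsp70 counts of rRNA− and 0.397% to 0.552% of those of polyA+ libraries. Per total of counts outside nuclear rRNA the fold of the mean CPM, rRNA− over polyA+, was 2.39 in the equalized and 1.57 in the full counts. Per library total with nuclear rRNA the full counts gave 0.776, lower in rRNA− libraries, so the direction of the family depends on the denominator.

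**Figure D5:**
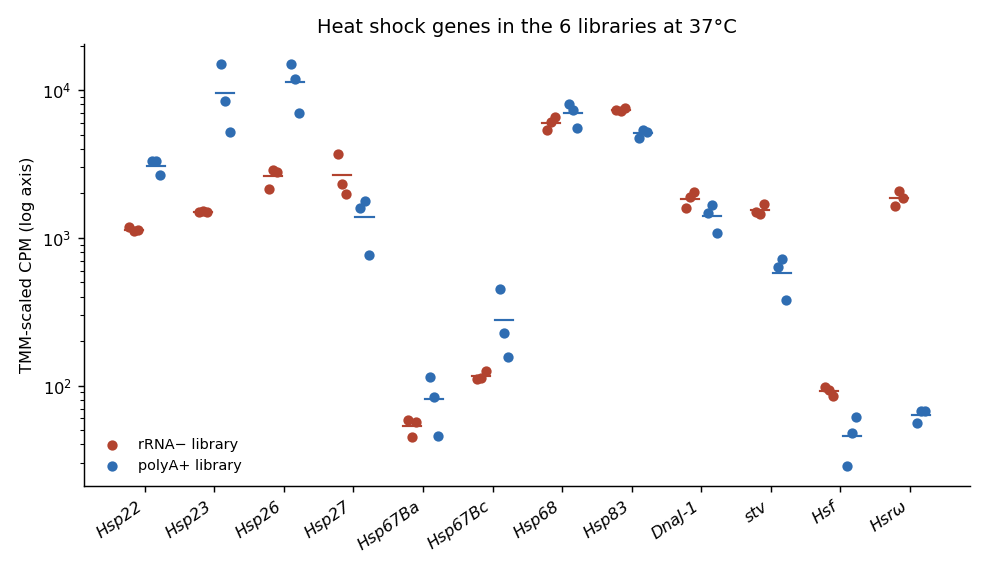
TMM-scaled CPM of heat shock genes is drawn on a log axis, with points for libraries and lines for the mean of a protocol. Hsrω is higher in rRNA− libraries, the small heat shock genes Hsp22, Hsp23 and Hsp26 are lower, and Hsp68 overlaps.

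Female reproductive genes showed how far the polyA+ libraries differed from each other. Yp1, a yolk protein gene, had 16563, 15230 and 16593 CPM in rRNA− libraries and 5632, 10006 and 11534 CPM in polyA+ libraries. The protocols did not overlap, but the log2 fold change of 0.89 was under the fold of 2, and Yp1 was called without replicate 3 at 1.17 and with the scalings by library totals and by nuclear mRNA at 1.47. None of the 3 yolk protein genes was called. Cp15, a chorion protein gene, had 5284, 6597 and 4226 CPM in rRNA− libraries and 0, 372 and 7432 CPM in polyA+ libraries. These overlapped, and the log2 fold change of 4.28 did not pass (edgeR adjusted p 0.34). Of 9 chorion genes 1 was called, beside 46.2% of all genes. Maternal and germline genes were higher in 12 of 26 and lower in 1, with a median log2 fold change of 1.41, beside 27.5% and 18.7% of all genes and a median of 0.31 for mRNAs in their length band. The median was 0.75 without replicate 1, 1.11 without replicate 2 and 2.06, with 18 higher, without replicate 3. tud, which builds the germ plasm, had 238, 233 and 251 CPM in rRNA− libraries and 11.4, 9.41 and 8.59 CPM in polyA+ libraries (log2 fold change 4.62). The receptor gene Tl had 95.6, 87.8 and 106 CPM in rRNA− libraries and 2.91, 1.21 and 3.22 CPM in polyA+ libraries (log2 fold change 5.33). osk, the germ plasm organizer, had 694, 663 and 654 CPM in rRNA− libraries and 103, 294 and 198 CPM in polyA+ libraries (log2 fold change 1.88). These stood apart in every library. exu, which localizes maternal RNA, was the lower member, with 198, 238 and 230 CPM in rRNA− libraries and 422, 546 and 967 CPM in polyA+ libraries (log2 fold change −1.45), and it was not called without replicate 2, at −1.59, or with the scalings by library totals, at −0.87, and by nuclear mRNA, at −0.88. The summed germline list was 6784, 6203 and 5594 CPM of library totals in rRNA− libraries, against 1122, 2038 and 4272 CPM in polyA+ libraries.

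Some genes were seen by 1 protocol alone. With at least 3 counts in all libraries of a protocol and 0 in all of the other, 227 genes were detected in rRNA− libraries alone, among them 82 snoRNA, 12 snRNA, 4 scaRNA, 21 lncRNA, 93 mRNA and 11 nuclear rRNA genes, the mRNAs with a median exonic length of 3638 nt. Kr-h1, the transcription factor that answers juvenile hormone, had 124, 81 and 122 counts in rRNA− libraries and 0 in every polyA+ library. lncRNA:CR44999 had 290, 205 and 155 counts in rRNA− libraries and 0 in every polyA+ library. In polyA+ libraries alone 22 genes were detected, of which 17 were asRNA genes. The mitochondrial ribosomal protein gene mRpL53 had 0 counts in every rRNA− library and 242, 274 and 232 counts in polyA+ libraries, at least 124-fold lower, but in the full counts it had 63, 242 and 0 counts in rRNA− libraries and 923, 739 and 1471 in polyA+ libraries, so that its absence rests on the equalized table. A count of 0 limits a gene only to the 3 counts that chance allows at this depth.

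The difference between protocols at 37°C was also set against that at 25°C, to ask which differences go with the heat. In a fit of all 30 libraries with the pool as a block, 0 of 10103 genes, 0%, had a protocol difference at 37°C unlike that at 25°C by edgeR's adjusted p (quasi-likelihood, Benjamini-Hochberg), while 1341 genes, 13.3%, had an unadjusted p under 0.05 and DESeq2 called 72. Without replicate 3 of the 37°C pools 423 genes were called, 140 higher and 283 lower. In simulated counts with 4-fold differences the fit recovered 7.5% of the changed genes. Differences of that size were thus mostly not detectable at this replication in the simulated setting. There each gene otherwise had 1 mean over both protocols and all temperatures, unlike the real counts, so the recovery in these data is not known. The smallest p went to CG6839, with a difference of −4.14 on the log2 scale (edgeR adjusted p 0.37), and among those above 0 to CG11891, which spans the same stretch as CG11889 and is uncertain. Of the nuclear oxidative phosphorylation genes 28 of 67 had an unadjusted p under 0.05, as did 18 of 24 gut proteases, beside 1275 of the 9329 genes tested at 37°C. In both lists replicate 3 had the lowest sum of the polyA+ libraries at 37°C, and whether that library has a part in these differences was not tested. No gene class had a share whose protocol ratio passed the test against the other temperatures. The log2 ratio of the lncRNA share was 3.90 ± 0.184 (SD, n = 3) at 37°C, against a mean of 3.04 over the other 12 pools (exact 2-sided permutation p 0.024, adjusted over 10 classes 0.24). The log2 ratio of the mitochondrial rRNA share was −1.67, against −3.05 (exact permutation p 0.081, adjusted 0.41), and the other classes had adjusted p from 0.51 to 0.86. Within length bands at 37°C, R² across genes ran from 0.541 to 0.847, with 0.539 over all mRNAs and 0.711 once a linear trend on log2 length was removed from each protocol.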

How the data were processed

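RNA-seq was done on 30 libraries of whole flies, of which the 6 at 37°C were compared. The files deposited by the authors hold integer counts of reads for each of 17807 genes and are not normalized. They aligned reads to the dm6 assembly with STAR 2.7.7a and ran Salmon 1.4.0, as the submitters' processing notes name them, and which of these made the counts, and whether strand was used, is not given in the sources used here. To make the equalized table, they took out reads of rRNA, shortened those of polyA+ libraries to 85 bp and sampled these to match the rRNA− library in number. The equalized table holds few of the counts that Hsp70, histone and 7SL genes have in the full table. Nuclear rRNA took 56.3%, 41.8% and 54.3% of the full rRNA− counts. The labels name Tecan kits for both protocols, whereas the methods name an Illumina kit for polyA+.

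Genes were tested with edgeR 4.0.16 in R 4.3.3 (filterByExpr, TMM, robust quasi-likelihood fit, replicate number as a block), and called at an adjusted p under 0.05 and a fold of at least 2. The standard error of a log2 fold change is an approximation from the fold and its F statistic. DESeq2 1.42.0 served as an alternative, and edgeR ran with limma 3.58.1. Each result was also computed with other scalings and filters, the full counts, no block and each replicate left out. Class shares were compared by an exact permutation test of 3 against 12 pools (455 splits). Lengths and positions are from Ensembl release 115 and cover 17710 genes, and no sequence was used here. The block takes libraries of the same replicate number as made from the same pool. The series' design text has total RNA made into both kinds of library, but no source states that each pool was split. Same-numbered libraries did not deviate together in the data (correlation of deviations −0.14, −0.098 and −0.20). In simulated counts with 200 genes changed 4-fold, the test of the protocol on 9111 genes recovered 45% with 101 calls, 11 of them false. The p-values measure the spread between 3 pools.

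The libraries, gene lists and tests were chosen with earlier results of these data known. Genes to be named were the 10 of smallest p in each direction without overlap between protocols, the first 5 lncRNA or asRNA genes in each direction, the 3 of smallest p in each direction of the comparison with 25°C, members of short lists and up to 3 per direction of longer lists, the 3 most abundant per protocol and genes the study names. The text gives a part of these. Genes that ran against their length or were detected in 1 protocol were chosen after their values were seen. GC content, A runs, isoforms and introns were not analysed here.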

Additional observations from a re-analysis of the deposited data

How the results depend on the processing

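Calls higher in rRNA− libraries stayed within 1.5 times the 2568 of the reported setting under all alternatives run (1723 to 3305), among them no replicate block (2754 higher, 2186 lower), no filter on low counts, DESeq2 (2867 higher, 1907 lower) and the full counts (2678 higher, 2114 lower). Without the replicate block, which rests on the pairing of the pools, Act88F was called at −3.57 and the call of every other gene given with its fold change was the same. Calls lower in rRNA− libraries fell to 710 with library totals only and to 693 with the nuclear mRNA total, and ran from 493 to 2433 when each replicate was left out. The 0 calls of 37°C against 25°C became 1 without the replicate block and 72 with DESeq2, and 0 to 423 when a replicate was left out. The log2 ratio of the nuclear mRNA share was 0.013, and it was −0.12 with the full counts of either read length, −0.035 without mitochondrial genes and −0.0049 to 0.026 without each replicate. With the full counts of 150 bp reads the log2 ratios were 14.5 for snoRNA, 11.8 for snRNA and 11.3 for scaRNA. For other ncRNA they were 6.25 at 85 bp and 6.26 at 150 bp, and for pseudogenes 0.095 and 0.15. R² was 0.440 for means above 10 and 0.696 on log2 of the mean plus 1. Detection in rRNA− libraries alone gave 419, 131 and 135 genes, and in polyA+ libraries alone 52, 10 and 92 genes, at 1 count, at 10 counts and in the full counts. The log2 fold change of Hsp68 was 0.38 with library totals and 0.37 with nuclear mRNA, against −0.20. The log2 fold of the summed Hsp70 copies in the full counts was 0.65 per total outside nuclear rRNA and −0.37 per library total with it, an alternative chosen after seeing the data. With the full counts Hsf was not called, at 0.97. The causes were not tested. Each fit without a replicate has fewer samples, and its calls fell without replicate 1 (2188 higher, 1129 lower) and replicate 2 (1723 higher, 493 lower). They rose without replicate 3 (3178 higher, 2433 lower). The depth, 4008813 to 4709550 counts per library, limits genes of few counts in polyA+ libraries.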
